A study of Mus musculus with 4 samples.

Results

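The MAP kinase phosphatases of the Dusp family were described through 9 genes, Dusp1, Dusp2, Dusp4, Dusp5, Dusp6, Dusp7, Dusp8, Dusp10 and Dusp16. They were chosen by gene symbol, each matched 1 Ensembl identifier, and each had a row in all 4 deposited tables, which together list 20089 genes. The data are RNA sequencing of HT22, a mouse line derived from hippocampal neurons and labelled as strain C57BL/6, with 1 library for each of 4 groups. Cells that carried a lentivirus aimed at Neat1 (knockdown cells) and cells that carried a control negative lentivirus (control cells) were each kept deprived of oxygen and glucose (OGD, a culture model of ischaemia) or in DMEM/F12 with 10% FBS (normal culture). Every group had therefore been infected with a lentivirus, and no uninfected cells were analysed here. The sources used here do not give how long OGD lasted, which sequence the virus carries or whether the cells were 1 clone. Because each group is 1 library, no difference below has a replicate check, and no p-value was computed.

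Mitogen-activated protein (MAP) kinases are switched on when upstream kinases phosphorylate a threonine and a tyrosine in their activation loop. The dual-specificity phosphatases described here remove both phosphates and so switch the kinases off. Dusp1, Dusp2, Dusp4 and Dusp5 encode nuclear enzymes whose genes are typically switched on by growth factors and stress. Dusp6 and Dusp7 encode cytoplasmic enzymes that prefer ERK, and Dusp8, Dusp10 and Dusp16 encode enzymes that act on the stress-activated kinases JNK and p38. In the brain, several of these transcripts are known as early responders to neuronal activity.

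Promoter sequences are shown for 5 of the genes, those with the widest differences between libraries among the 8 that have an entry in the RefSeq promoter table (GRCm38.p6). Each is the 250 bases before the annotated start, written 5′ to 3′ along the gene. Dusp1 lies at chr17:26508473-26508722, minus strand. Dusp5 lies at chr19:53528895-53529144, plus strand. Dusp2 lies at chr2:127335909-127336158, plus strand. Dusp7 lies at chr9:106368382-106368631, plus strand. Dusp8 lies at chr7:142095285-142095534, minus strand. Capitals mark matches, on either strand, to any of the motifs TGACGTCA (the cAMP response element), its shorter core TGACG, the AP-1 site TGANTCA, the ATF4 and C/EBP composite TGATGNAA, and the hypoxia response cores, which are ACGTG in one form and GCGTG in the other.
Dusp1: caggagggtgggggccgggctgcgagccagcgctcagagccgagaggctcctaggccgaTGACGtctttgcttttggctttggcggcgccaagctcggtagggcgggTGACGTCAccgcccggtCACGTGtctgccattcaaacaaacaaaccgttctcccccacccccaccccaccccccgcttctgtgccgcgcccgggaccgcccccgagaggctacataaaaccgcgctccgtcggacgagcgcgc
Dusp5: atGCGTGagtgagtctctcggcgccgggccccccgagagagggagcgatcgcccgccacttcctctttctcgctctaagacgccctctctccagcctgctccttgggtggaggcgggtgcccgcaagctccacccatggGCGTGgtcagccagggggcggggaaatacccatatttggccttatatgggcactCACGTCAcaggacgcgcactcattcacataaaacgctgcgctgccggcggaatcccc
Dusp2: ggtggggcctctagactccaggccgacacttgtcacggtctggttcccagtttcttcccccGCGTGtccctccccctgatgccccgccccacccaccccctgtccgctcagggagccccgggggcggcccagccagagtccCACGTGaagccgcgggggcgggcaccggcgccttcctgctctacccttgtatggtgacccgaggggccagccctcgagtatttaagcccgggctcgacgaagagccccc
Dusp7: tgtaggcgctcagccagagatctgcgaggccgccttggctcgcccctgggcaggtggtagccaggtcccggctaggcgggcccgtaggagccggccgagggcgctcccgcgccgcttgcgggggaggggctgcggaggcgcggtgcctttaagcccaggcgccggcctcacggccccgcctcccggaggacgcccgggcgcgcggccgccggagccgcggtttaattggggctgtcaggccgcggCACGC
Dusp8: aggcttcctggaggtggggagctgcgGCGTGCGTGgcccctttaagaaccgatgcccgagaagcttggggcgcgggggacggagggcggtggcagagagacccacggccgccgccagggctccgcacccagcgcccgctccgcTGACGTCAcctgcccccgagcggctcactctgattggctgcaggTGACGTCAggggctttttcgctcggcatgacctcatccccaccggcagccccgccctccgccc
The full motif TGACGTCA, which contains the core on each strand, stood once in the Dusp1 promoter, starting at -143 from the start site. In the Dusp8 promoter it stood at -107 and at -63. Of the 32817 promoter windows in the table, which run to 50 bases past the start, 1.79% held it, against 2 of the 8 windows of the family. The core was in 5 of the 8 windows, against 20.8% of all windows. ACGTG was in 3 of 8 (19.6% of all) and GCGTG in 4 of 8 (32.4% of all). TGANTCA and TGATGNAA were in 0 of the 8, against 7.81% and 3.97% of all windows. These matches describe letters in a short window, and neither their presence nor their absence says whether a factor binds.

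The libraries held 19066951 reads assigned to genes in knockdown cells under OGD, 17232866 in control cells under OGD, 20764430 in knockdown cells in normal culture and 18596774 in control cells in normal culture. Of these, the 9 genes took 10138, 6554, 3057 and 4076 reads in that order. Levels are CPM (reads scaled to library size) after TMM scaling, with exact 95% Poisson intervals. Folds carry exact 95% intervals, and log2 ratios were computed after 0.5 CPM was added to each level. All intervals cover counting error only, since the reads have no molecular identifiers and the groups no replicates. The target itself stood at 42.1 CPM in knockdown cells against 74.4 CPM in control cells under OGD, and at 121 against 193 CPM in normal culture, so Neat1 was 1.77-fold lower under OGD and 1.60-fold lower in normal culture. On the deposited FPKM its log2 ratio under OGD was smaller, at -0.29 against -0.81 with CPM. In bulk RNA a lower level from fewer cells of a kind and one from less RNA per cell cannot be told apart. Each library enters 2 of the 4 comparisons, so comparisons that share one are not independent.

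The control library in normal culture stood apart in brain-type transcripts. All 12 genes of a neuron marker list, among them Camk2a, Snap25, Slc17a7 and Rbfox3, had at least 20 reads there, and together they held 2025 CPM. Nrgn alone held 1095 CPM of that sum. Not every marker was highest there. Snap25 held 819 reads and Map2 499 in knockdown cells under OGD, against 277 and 164 in this library, and Camk2a was nearly level, at 809 against 828. The same list summed to 215 CPM in knockdown cells under OGD, 83.7 CPM in control cells under OGD and 33.5 CPM in knockdown cells in normal culture, where 12, 8 and 6 of its genes reached 20 reads. No neuron marker was at 0 in any library. The oligodendrocyte list summed to 104, 34.3, 27.1 and 281 CPM in the order knockdown OGD, control OGD, knockdown normal and control normal. The astrocyte list summed to 231, 239, 69.8 and 175 CPM, the microglia list to 21.8, 18.3, 64.0 and 70.7, and the endothelial list to 9.55, 6.31, 8.05 and 28.9. Gja1 alone held 189 and 233 CPM of the astrocyte sum in knockdown and control cells under OGD. In control cells Gja1 was higher under OGD, while Slc1a2 fell from 1412 reads to 83, Slc1a3 from 204 to 17 and Gfap from 102 to 0. Tmem119 alone held 56.0 and 61.7 CPM of the microglia sum in knockdown and control cells in normal culture. Markers at 0 in a library included Gfap and Aqp4 in control cells under OGD, Aif1 in every library but that of control cells in normal culture, and Olig2 in the libraries of control OGD and knockdown normal. Every comparison against control cells in normal culture rests on that library, which cannot be left out because its group holds no other, and the part of these transcripts in the phosphatase values was not tested.

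**Figure D1:**
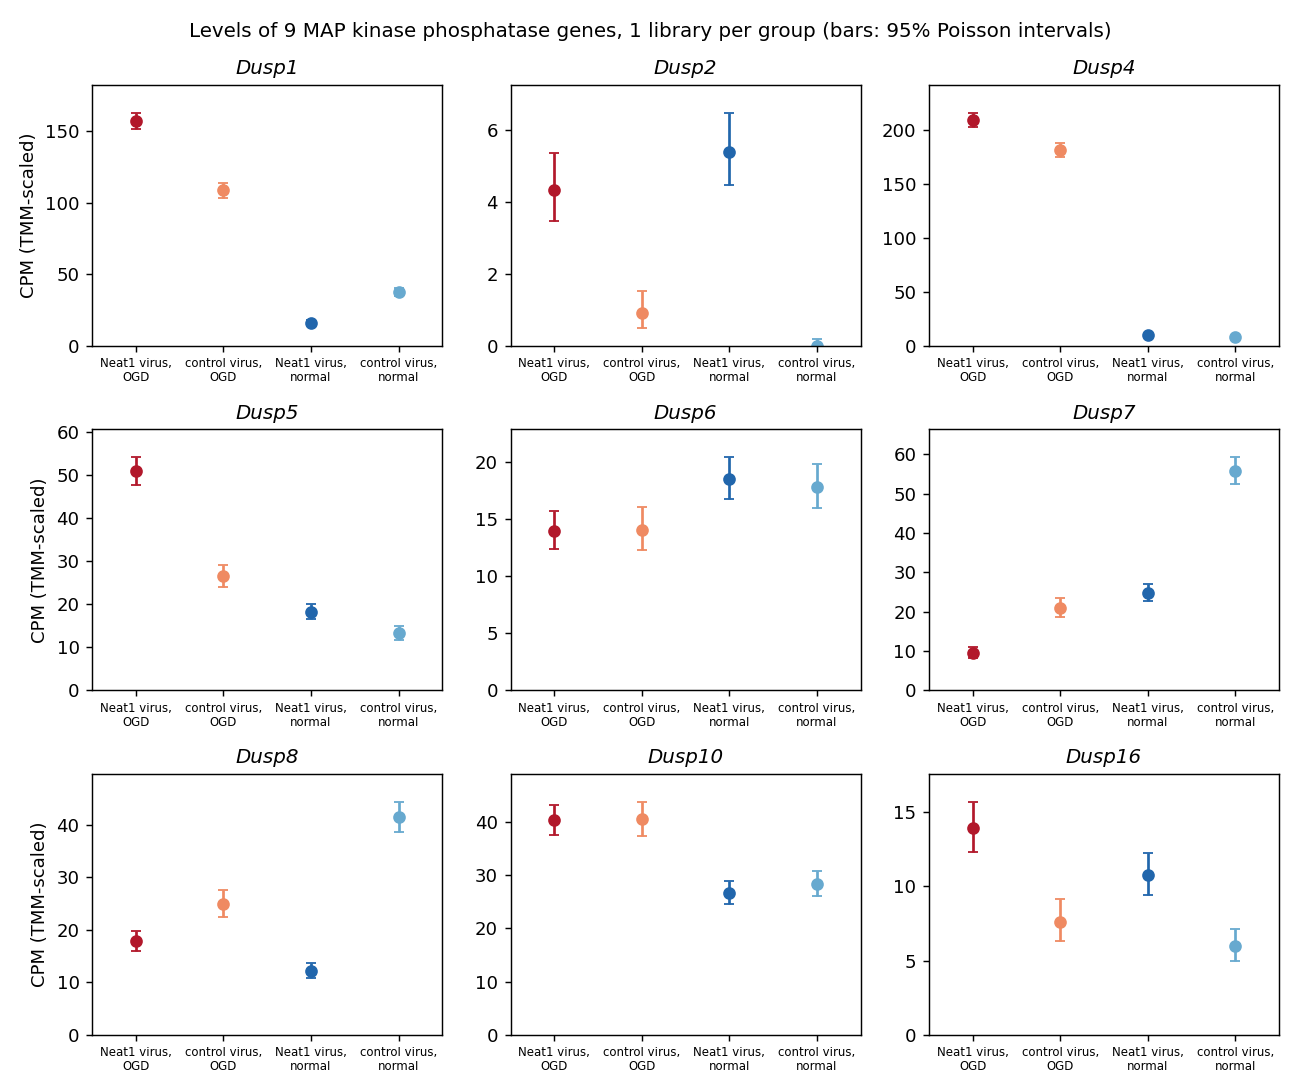
Level of each gene in CPM (vertical axes, each from 0) in the 4 libraries, with knockdown (Neat1 virus) left of control virus within each culture; points are single libraries and bars are exact 95% Poisson intervals. Dusp4 and Dusp1 stand far higher in both OGD libraries, Dusp7 is highest in control cells in normal culture, and Dusp6 spans only 14.0 to 18.5 CPM.

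Among the nuclear enzymes, Dusp4 had the widest response to OGD. Dusp4 (ENSMUSG00000031530, chromosome 8, 34807297 to 34819894, plus strand, GRCm38, protein-coding) encodes a phosphatase of ERK, JNK and p38. It stood at 210 CPM in knockdown cells under OGD (203 to 216) and 182 CPM in control cells under OGD (175 to 189). In normal culture it stood at 9.68 CPM in knockdown cells (8.41 to 11.1) and 7.90 CPM in control cells (6.71 to 9.25). Both OGD libraries were thus far above both normal libraries. OGD went with 21.7-fold more Dusp4 in knockdown cells (18.8 to 25.0) and 23.0-fold more in control cells (19.6 to 27.2). Its log2 ratio ranked 19 from the top of 14071 genes in knockdown cells and 5 from the top of 14101 in control cells. Between the viruses it differed little, by 1.15-fold under OGD (1.10 to 1.21) and 1.22-fold in normal culture, where the interval of 0.990 to 1.52 includes 1. The size under OGD depends on the scaling: its log2 ratio was 0.21 with TMM, 0.41 with total counts and 0.40 with the deposited FPKM.

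Dusp1 responded to OGD in both kinds of cell but far more in knockdown cells. Dusp1 (ENSMUSG00000024190, chromosome 17, 26505590 to 26562128, minus strand) encodes the prototype of the family, an immediate-early gene product that acts on p38, JNK and ERK. It stood at 157 CPM in knockdown cells under OGD (152 to 163) and 109 CPM in control cells under OGD (104 to 114). In normal culture it stood at 16.2 CPM in knockdown cells (14.5 to 17.9) and 37.2 CPM in control cells (34.6 to 40.0). The knockdown library was therefore the higher of the pair under OGD and the lower of the pair in normal culture. OGD went with a 9.74-fold higher level in knockdown cells (8.71 to 10.9), against 2.92-fold in control cells (2.68 to 3.19). The neuron markers also differed in these comparisons: 11 of 12 were higher under OGD in knockdown cells (median log2 ratio 3.15), and 10 of 12 were lower in control cells (median -4.24). Their part in the Dusp1 values was not tested. The knockdown ratio was 1.45-fold higher under OGD (1.36 to 1.54) and 2.30-fold lower in normal culture (2.03 to 2.63), where the control library is the one rich in neuron marker reads. Dusp1 shares 11 exon bases with Ergic1 on the opposite strand, and the sources used here do not say whether counting used strand.

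Dusp5 was highest in knockdown cells under OGD. Dusp5 (ENSMUSG00000034765, chromosome 19, 53529109 to 53542431, plus strand) encodes an ERK-specific nuclear phosphatase. Its levels were 50.8 CPM in knockdown cells (47.7 to 54.0) and 26.5 CPM in control cells (23.9 to 29.2) under OGD. They were 18.2 CPM in knockdown cells (16.4 to 20.1) and 13.3 CPM in control cells (11.7 to 15.0) in normal culture. None of these 4 intervals overlap. OGD went with a 2.79-fold higher level in knockdown cells (2.48 to 3.14) and a 2.00-fold higher level in control cells (1.70 to 2.34), and the knockdown ratio was 1.92-fold under OGD (1.71 to 2.16) and 1.37-fold in normal culture (1.17 to 1.61). An antisense gene on the opposite strand covers 547 of its 2473 exon bases, so without stranded counting reads of the pair cannot be told apart.

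Dusp2 held few reads and was higher with the Neat1 virus in both cultures. Dusp2 (ENSMUSG00000027368, chromosome 2, 127336159 to 127338376, plus strand) encodes an inducible phosphatase of ERK and p38 best known from immune cells. It held 85 reads in knockdown cells and 14 reads in control cells under OGD, and 116 reads in knockdown cells and 0 reads in control cells in normal culture. Both knockdown libraries were above both control libraries. Knockdown cells stood at 4.34 CPM under OGD and 5.40 CPM in normal culture, and control cells at 0.910 CPM under OGD. In the control library in normal culture the exact interval ends at 0.188 CPM, and the level of 3 reads is 0.153 CPM. Knockdown cells were 4.77-fold higher under OGD (2.69 to 9.09) and, against the level of 3 reads in the control library, at least 35.3-fold higher in normal culture. That bound takes the 116 reads as they stand, and the exact 95% interval, which allows for counting error in both libraries, begins at 28.3-fold. Under OGD, Dusp2 in knockdown cells stood at 0.804 times its level in normal culture (0.600 to 1.07). In control cells it was at least 5.95-fold higher under OGD by the same floor, on 14 reads, and the exact interval begins at 4.23-fold.

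**Figure D2:**
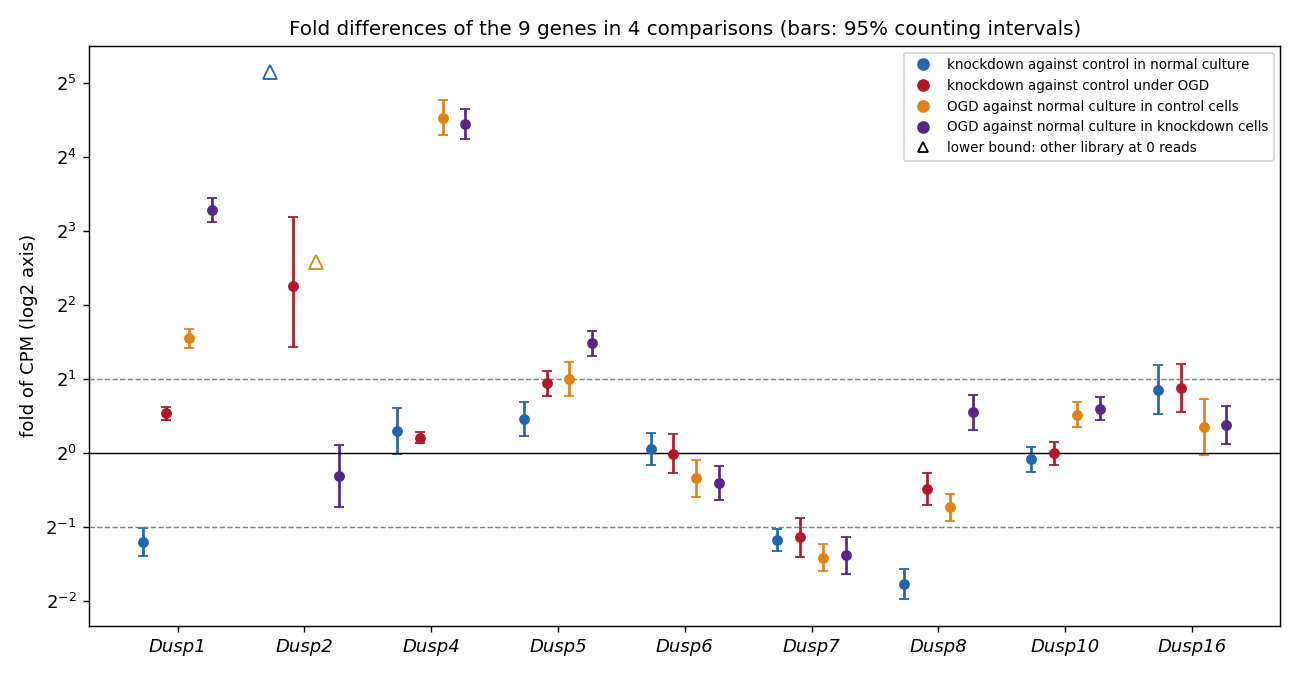
Fold difference of CPM (log2 axis, 1 marked by a solid line and 2-fold by dashed lines) for each gene in 4 comparisons, with exact 95% counting intervals; open triangles are bounds against the level of 3 reads where the other library held 0. Dusp7 lies below 1 in all 4 comparisons, and Dusp4 lies near 22-fold in both OGD comparisons.

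The cytoplasmic ERK phosphatases went separate ways. Dusp7 (ENSMUSG00000053716, chromosome 9, 106368632 to 106375724, plus strand) stood at 9.50 CPM in knockdown cells (8.18 to 10.97) and 20.9 CPM in control cells (18.7 to 23.3) under OGD. In normal culture it stood at 24.8 CPM in knockdown cells (22.7 to 26.96) and 55.8 CPM in control cells (52.6 to 59.3). It was thus lower under OGD with either virus and lower with the Neat1 virus in either culture. OGD went with 2.61-fold less Dusp7 in knockdown cells (2.20 to 3.10) and 2.67-fold less in control cells (2.35 to 3.03). Knockdown cells had 2.20-fold less under OGD (1.83 to 2.65) and 2.25-fold less in normal culture (2.03 to 2.51), against the library rich in neuron marker reads, whose part was not tested. The difference under OGD depends on the scaling: its log2 ratio was -1.10 with TMM, -0.90 with total counts and -0.75 with the deposited FPKM.

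Dusp6 (ENSMUSG00000019960, chromosome 10, 99263231 to 99267489, plus strand), a standard feedback target of ERK signalling, varied least among the 9 genes, with a span of 1.32-fold from its lowest to its highest library. It stood at 14.0 CPM in knockdown cells (12.4 to 15.8) and 14.1 CPM in control cells (12.3 to 16.1) under OGD. In normal culture it stood at 18.5 CPM in knockdown cells (16.8 to 20.4) and 17.8 CPM in control cells (16.0 to 19.8). OGD went with 1.32-fold less in knockdown cells (1.13 to 1.55) and 1.27-fold less in control cells (1.07 to 1.51). The intervals of the knockdown ratios, 0.827 to 1.19 under OGD and 0.897 to 1.20 in normal culture, both include 1.

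Of the phosphatases of JNK and p38, Dusp8 differed most. Dusp8 (ENSMUSG00000037887, chromosome 7, 142079490 to 142095843, minus strand) is known for its expression in brain and heart. It stood at 17.8 CPM in knockdown cells (16.0 to 19.7) and 24.9 CPM in control cells (22.5 to 27.5) under OGD, and at 12.2 CPM in knockdown cells (10.7 to 13.7) and 41.5 CPM in control cells (38.7 to 44.4) in normal culture. The control library in normal culture was the highest, as it was for Dusp7 and for the summed neuron marker list, though not for every marker on that list. The part of those transcripts in these values was not tested. Knockdown cells had 3.41-fold less in normal culture (2.96 to 3.94) and 1.40-fold less under OGD (1.21 to 1.62). Under OGD, Dusp8 was 1.46-fold higher in knockdown cells (1.24 to 1.72) and 1.67-fold lower in control cells (1.47 to 1.89).

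Dusp10 and Dusp16 varied by less. Dusp10 (ENSMUSG00000039384, chromosome 1, 184013302 to 184075636, plus strand) stood at 40.3 CPM in knockdown cells and 40.5 CPM in control cells under OGD, and at 26.7 CPM in knockdown cells and 28.4 CPM in control cells in normal culture. OGD thus went with 1.51-fold more in knockdown cells (1.36 to 1.69) and 1.43-fold more in control cells (1.27 to 1.60). The knockdown ratios of 0.996 under OGD (0.896 to 1.11) and 0.941 in normal culture (0.836 to 1.06) have intervals that include 1. Dusp16 (ENSMUSG00000030203, chromosome 6, 134715468 to 134792625, minus strand) differed mainly with the virus instead. It stood at 13.9 CPM in knockdown cells and 7.61 CPM in control cells under OGD, and at 10.8 CPM in knockdown cells and 5.97 CPM in control cells in normal culture. The knockdown ratio was 1.83-fold under OGD (1.47 to 2.30) and 1.80-fold in normal culture (1.44 to 2.27). The OGD ratio was 1.30-fold in knockdown cells (1.08 to 1.55) and 1.27-fold in control cells, where the interval of 0.978 to 1.66 includes 1.

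Levels of different genes were compared only per transcript length, with the deposited values read as FPKM. In both normal libraries Dusp7 ranked highest of the 9 genes, at 12.2 FPKM in knockdown cells and 27.02 FPKM in control cells. In knockdown cells Dusp10 lay close to it, at 11.75 FPKM. Under OGD the top ranks went to Dusp1 (90.1 FPKM) and Dusp4 (85.2 FPKM) in knockdown cells, and to Dusp4 (64.3 FPKM) and Dusp1 (57.2 FPKM) in control cells. Dusp4 had ranked 8 of 9 in knockdown cells and 7 of 9 in control cells in normal culture. Dusp1 and Dusp4 together made up 72.6% of the family's summed FPKM in knockdown cells and 70.3% in control cells under OGD, against 19.5% in knockdown cells and 26.9% in control cells in normal culture. The summed FPKM of the family was 242 in knockdown cells and 173 in control cells under OGD, and 64.9 and 92.2 in normal culture. The cytoplasmic pair took 4.54% of it in knockdown cells and 8.27% in control cells under OGD, against 30.1% and 37.2% in normal culture. The sum of Dusp8, Dusp10 and Dusp16 varied less, at 27.7 and 26.0 FPKM in knockdown and control cells under OGD and 19.8 and 26.9 FPKM in knockdown and control cells in normal culture. The low end of the order lay close together, with Dusp16, Dusp2 and Dusp8 between 4.11 and 5.10 FPKM in knockdown cells under OGD, and no interval is attached to FPKM.

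**Figure D3:**
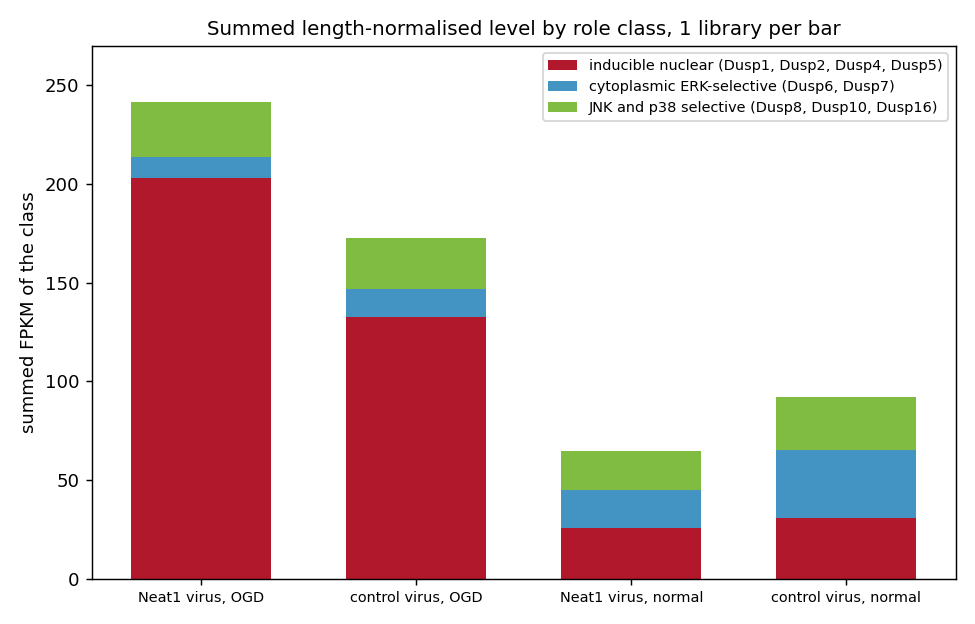
Summed FPKM (vertical axis) of the 9 genes in each library, stacked by role class, with knockdown (Neat1 virus) left of control virus within each culture; each bar is 1 library and carries no error. The nuclear inducible class makes up 84.0% and 76.7% of the bars of knockdown and control cells under OGD, and 39.4% and 33.7% of those in normal culture.

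For OGD against normal culture, the size rule of 2-fold was applied where the higher library held 20 reads or more. In knockdown cells 3 of the 9 genes were higher, Dusp1, Dusp4 and Dusp5, where 19.1% of 14071 genes were, and 1 was lower, Dusp7, where 16.9% were. In control cells 8 of the 9 genes passed the floor, Dusp2 falling short with 14 reads. Of these, 2 were higher, Dusp1 and Dusp4, where 9.36% of 14101 genes were, and 1 was lower, Dusp7, where 22.2% were. Dusp5 lay inside the rule in knockdown cells and just outside it in control cells, with log2 ratios of 1.45 and 0.97. With median-of-ratios factors its ratio in control cells was 1.01, and 3 genes were then higher there. The median log2 ratio of the family was 0.53 in knockdown cells and 0.42 in control cells, against -0.0020 and -0.11 over all genes tested. With total counts in place of TMM the median of all genes in control cells moved to -0.34.

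For knockdown against control, 1 gene was higher under OGD, Dusp2, where 10.7% of 13388 genes were, and 1 was lower, Dusp7, where 4.23% were. In normal culture 1 was higher, Dusp2, where 6.25% of 14554 genes were, and 3 were lower, Dusp1, Dusp7 and Dusp8, where 16.3% were. Dusp2 ranked 2 from the top in normal culture and 498 from the top under OGD. The rank in normal culture rests on 0 reads in control cells, so the log2 ratio behind it depends on the CPM added. That ratio was 3.56 with 0.5 CPM added, 5.78 with 0.1 CPM and 1.89 with 2 CPM. The family's median log2 ratio was 0.21 under OGD and 0.05 in normal culture, against -0.00071 and -0.026 over all genes. Under OGD the calls changed with the scaling. With total counts, which move the median of all genes to 0.19, 3 genes were higher (Dusp2, Dusp5 and Dusp16) and 0 lower.

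**Figure D4:**
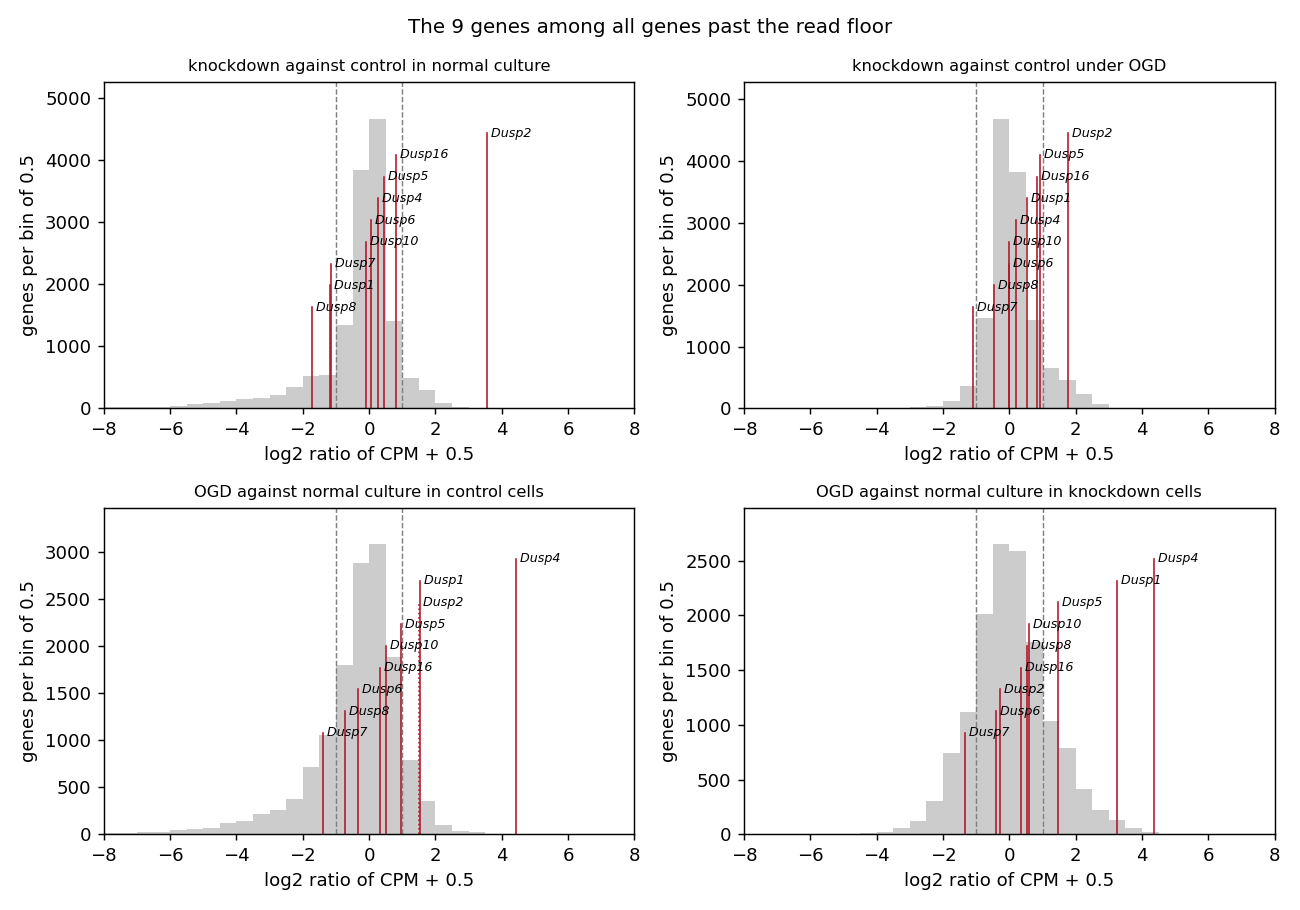
Log2 ratio of CPM + 0.5 (horizontal axes) against the number of genes per bin of 0.5 (grey bars, all genes whose higher library held 20 reads or more; the outermost bins hold all values beyond them), with the 9 genes as red lines, dotted where below 20 reads, and 2-fold as dashed lines. Line heights only separate the labels; Dusp4 lies in the upper tail of both OGD panels and Dusp2 in that of knockdown in normal culture.

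The OGD ratios in knockdown cells and in control cells share no library and were set against each other gene by gene. They differed by less than 0.5 on the log2 scale for Dusp4, Dusp6, Dusp7, Dusp10 and Dusp16, and for Dusp5, which lay just inside that cut. The share of all genes within 0.5 was not computed, so the number of such genes says nothing particular about the family. The difference, knockdown minus control, was -0.07 for Dusp4 with a counting interval of -0.39 to 0.22, and 0.06 for Dusp7 (-0.27 to 0.33). For Dusp5 it was 0.48 (0.20 to 0.76). Dusp1 had log2 ratios of 3.24 in knockdown cells and 1.53 in control cells, a difference of 1.71 (1.53 to 1.94). Dusp8 had 0.53 and -0.72, a difference of 1.26 (0.99 to 1.57). Dusp2 had -0.29 in knockdown cells, and no fold could be fixed in control cells, whose library in normal culture held 0 reads. Of the 8 genes that passed the floor in both comparisons, 2 had a difference of at least 1 above, where 15.3% of 13086 genes did, and 0 had one of at least 1 below, where 7.15% did. Dusp2 did not pass the floor in control cells and is not counted. The intervals hold no variation between cultures, so these differences have no test.

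**Figure D5:**
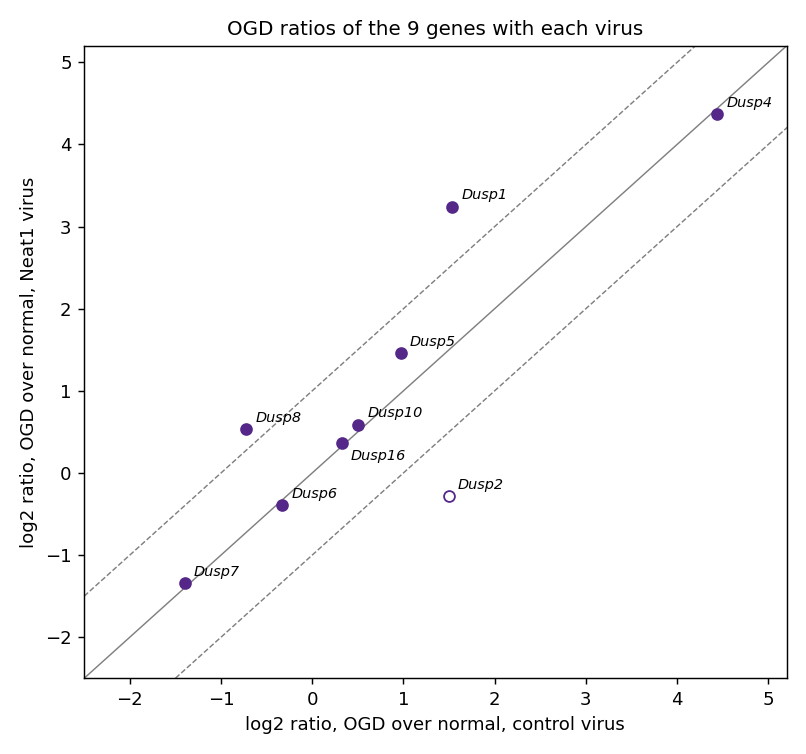
Log2 ratio of OGD over normal culture in knockdown cells (vertical axis) against the same ratio in control cells (horizontal axis), 1 point per gene, with the line of equality (solid) and differences of 1 (dashed). Dusp1 and Dusp8 lie above the upper dashed line, Dusp2 (open circle, control library at 0 reads in normal culture) lies below the lower one, and 6 genes lie between them.

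The kinases that these enzymes act on were measured in the same libraries. Of 10 MAP kinase genes 9 had reads, and all 9 passed the floor in each comparison. Under OGD 3 were higher and 0 lower in knockdown cells, the JNK genes Mapk9 (log2 ratio 1.16), Mapk8 (1.03) and Mapk10. In control cells 0 were higher and 1 lower, Mapk12, a p38 isoform (-1.06). Over all genes, 19.1% were higher and 16.9% lower in knockdown cells, and 9.36% higher and 22.2% lower in control cells. Mapk3, which encodes ERK1, stood at 0.71 in knockdown cells and 0.92 in control cells and did not pass the rule. Of 7 MAP kinase kinases, 2 were higher in knockdown cells and 1 in control cells, with Map2k6, an activator of p38, at 1.75 and 1.88, and Map2k7, an activator of JNK, at 1.28 in knockdown cells. In each, 1 was lower, Map2k3, also an activator of p38, at -1.41 and -1.10. Between the viruses, 1 MAP kinase gene was higher and 0 lower under OGD, and 0 were higher and 1 lower in normal culture. That gene was Mapk10 both times, the neuronal JNK gene, with 72 reads in knockdown cells and 13 reads in control cells under OGD. In normal culture it held 0 reads in knockdown cells and 29 reads in control cells. Mapk10 followed the same order of knockdown and control as the neuron marker sum in each culture. No MAP kinase kinase passed the rule in either culture, with Map2k3 at -0.59 under OGD and Map2k1 at -0.43 in normal culture the farthest. The shares of all genes between the viruses were 10.7% higher and 4.23% lower under OGD, and 6.25% higher and 16.3% lower in normal culture. The median log2 ratio under OGD was 0.53 in knockdown cells and -0.0057 in control cells for the MAP kinases, and 0.26 and -0.20 for the MAP kinase kinases, against -0.0020 and -0.11 over all genes. Between the viruses it was -0.06 under OGD and -0.52 in normal culture for the kinases, and 0.09 and -0.15 for the kinase kinases.

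Other products of MAP kinase signalling were set beside the phosphatases. Of 10 ERK-responsive transcripts, 4 were higher and 2 lower under OGD in knockdown cells, and of the 9 that passed the floor in control cells 4 were higher and 1 lower. Among all genes 19.1% were higher and 16.9% lower in knockdown cells, and 9.36% higher and 22.2% lower in control cells. Fos, an AP-1 subunit, stood at 3.15 in knockdown cells and 2.69 in control cells, and Ccnd1, the cyclin D1 gene, at -3.88 and -2.23. Between the viruses under OGD 3 were higher and 1 lower, the zinc-finger factor gene Egr1 (1.38), Fos (1.05) and the ETS factor gene Etv1 (78 reads against 2), with Ccnd1 lower (-1.40). In normal culture 1 of 9 was higher, the ETS factor gene Etv4 (1.41), and 0 lower. Between the viruses 10.7% of all genes were higher and 4.23% lower under OGD, and 6.25% higher and 16.3% lower in normal culture. Sprouty and Spred genes encode inhibitors of the same pathway upstream of ERK. Of 6 with reads, 3 were higher and 0 lower under OGD in knockdown cells, and 0 were either in control cells. They were Spry2, Spry4 and Spry1, and between the viruses Spry2 was higher under OGD and Spry2 and Spry4 lower in normal culture. Spry2 stood at 2.30 in knockdown cells and -0.07 in control cells. Its knockdown ratio was 1.31 under OGD and -1.06 in normal culture, the same signs as Dusp1. Most neuron markers had these signs too. Of 12, 11 were higher and 1 lower in knockdown cells under OGD, and 11 were lower in normal culture. Their part in the Spry2 values was not tested. The median log2 ratio under OGD was 0.89 in knockdown cells and 0.79 in control cells for the ERK-responsive transcripts, and 0.51 and -0.04 for the Sprouty and Spred genes, against -0.0020 and -0.11 over all genes. Between the viruses it was 0.52 under OGD and 0.36 in normal culture for the transcripts, and 0.01 and -0.35 for the inhibitors, against -0.00071 and -0.026 over all genes.

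The other dual-specificity phosphatases on the list, most of which are not regarded as MAP kinase phosphatases, were set against the same background of all genes. Of 14 genes, 13 had reads and Dusp9 did not. Under OGD 2 were higher and 4 lower of 9 in knockdown cells. Dusp3 (1.29) and Styxl1 (23 reads against 0) were higher, and Dusp12 (-1.65), Dusp14 (-1.62), Dusp18 and Dusp28 lower. In control cells 1 was higher and 6 lower of 11, with Dusp11, an RNA phosphatase, at 1.16. Among all genes 19.1% were higher and 16.9% lower in knockdown cells, and 9.36% higher and 22.2% lower in control cells. The list's median log2 ratio was -0.13 in knockdown cells and -1.11 in control cells, against -0.0020 and -0.11 over all genes. Dusp26, a phosphatase of neural tissue, held 0 reads in knockdown cells in normal culture and 150 in control cells, and Ptpn5, a brain tyrosine phosphatase of MAP kinases, held 35 and 390 reads. Both were thus highest in the library that held the most neuron marker reads. In knockdown against control under OGD 1 was higher and 1 lower of 9. These were Styxl1, with 23 reads in knockdown cells and 0 in control cells, and Dusp18, with 6 and 30 reads, so both calls lie near the floor. In normal culture 0 were higher and 2 lower of 11, Dusp15 and Dusp26. Between the viruses 10.7% of all genes were higher and 4.23% lower under OGD, and 6.25% higher and 16.3% lower in normal culture. Of the 3 MAP kinase tyrosine phosphatases 2 passed the floor under OGD in knockdown cells and 2 in control cells, with 0 higher in either. Ptpn7 was lower in both, and Ptpn5 in control cells. Between the viruses Ptpn5 was higher under OGD (1 of 1) and lower in normal culture (1 of 2). Genes on these lists with fewer than 100 reads were named after their values were seen.

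Genes known to respond to low oxygen and to stress were set beside the family. All 10 hypoxia-induced genes were higher under OGD in knockdown cells and in control cells, with medians of 3.43 and 2.87. Over all genes, 19.1% were higher in knockdown cells and 9.36% in control cells. Of 8 ATF4 and CHOP stress factors, 5 were higher in knockdown cells and 7 in control cells, with medians of 1.21 and 2.27 and 0 lower. Atf3, a stress-induced bZIP factor, stood at 3.56 in knockdown cells and 3.19 in control cells. Between the viruses 0 of these 8 passed the rule in either culture. Of the hypoxia genes 0 of 10 passed it between the viruses under OGD, and in normal culture 0 were higher and 1 lower of 9, Ankrd37 (-1.39). Between the viruses 10.7% of all genes were higher and 4.23% lower under OGD, and 6.25% higher and 16.3% lower in normal culture.

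Genes with the most similar course over the 4 libraries were found by the distance between centred log2 values, among 10744 other named genes with at least 100 reads. Nearest to Dusp4 were Ero1l, an endoplasmic reticulum oxidase gene (distance 0.177), Bnip3, a mitophagy receptor gene (0.501), and Slc2a1, the glucose transporter gene (0.515). Nearest to Dusp1 were Nos2 (0.145), Dis3l2 (0.184) and Jun (0.291), of which Jun encodes an AP-1 subunit. Nearest to Dusp5 were Pank3, Usp13 and Tchp, at 0.113 to 0.169, and nearest to Dusp7 were Xrcc2, Nptxr and Fam171a2, at 0.180 to 0.240. Dusp8 lay nearest to Trim46, Hsd17b7 and Bloc1s3 (0.102 to 0.149). For Dusp2 the nearest genes lay much farther, with Cd74, the MHC class II invariant chain gene, at 1.20. Dusp6, Dusp10 and Dusp16 had neighbours at 0.0075 (Fam98b), 0.033 (Thap4) and 0.051 (Slc35a3). Within the family the closest pair was Dusp10 and Dusp16 (0.886) and the farthest Dusp4 and Dusp7 (5.93). With 4 libraries these distances are descriptions of course only.

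The authors' deposited tables carry their own mark of higher or lower genes for each pair of libraries, from a test that the sources used here do not name. Such a test compares 2 libraries, not conditions. For OGD in knockdown cells the authors' deposited table marks Dusp1 and Dusp4 as higher, where 1.18% of 17951 genes are so marked, and 0 as lower, where 0.663% are. For OGD in control cells it marks Dusp4 as higher, where 1.13% of 18879 genes are, and 0 as lower, where 3.18% are. For knockdown in normal culture it marks Dusp2 as higher (0.328% of 18309 genes) and Dusp7 and Dusp8 as lower (4.69%). For knockdown under OGD it marks 0 of the 9 genes, where 0.746% of 18502 genes are marked higher and 1.26% lower. Of the 6 marks in the authors' deposited tables, those of Dusp4 have adjusted p-values of 0.011 in knockdown cells and 0.00048 in control cells, and the others lie between 0.27 and 0.94.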

How the data were processed

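RNA sequencing covered 4 HT22 libraries, 1 for each pairing of lentivirus and culture. Per the labels' protocols, TRIzol was used for isolation, and deoxy-UTP labelled a single cDNA strand. The submitters' processing notes name TopHat2 and the build mm10. Which program and annotation gave the counts, and whether strand was used, is not given in the sources used here.

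The authors deposited 4 tables. Per the file headers each holds, for a pair of libraries, a size-factor scaled signal per gene, a ratio with its log2 value, and p-values raw and adjusted, beside columns headed by sample number whose deposited values were read as FPKM. Whole read counts were recovered from the deposited signal (100% whole at a relative tolerance of 1e-06), and both tables holding a library gave the same reads. A scaled column was tied to its library by the numbered column in which all of its genes at 0 are also at 0.

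TMM factors came from edgeR 4.0.16 and median-of-ratios factors from DESeq2 1.42.0 in R 4.3.3. Ratios and intervals came from Python 3.11.15 with scipy 1.17.1. No count test was run, because each group is 1 library. The interval of a difference of ratios is a Wald interval with 0.5 reads added to each count. It is centred on the difference from those counts, such as 1.74 for Dusp1 and 1.28 for Dusp8. The differences given in the text use 0.5 CPM added instead, so they do not lie exactly at the centre. Genes named beyond the 9 were, in each list and comparison, mainly the 3 with the largest ratios among genes with 100 reads or more, and for each of the 9 the 3 nearest in course. Names come from GENCODE M21, which named 19912 of 20089 identifiers. Of 108 list symbols 105 had reads. The members and lists were chosen with earlier results of these data known. The size rule and the intervals were tried on simulated Poisson counts. Those counts follow the model of the intervals and hold no variation between cultures, so they cannot show how either holds across cultures. Alternatives were other scaling, other added CPM, other floors and the deposited FPKM ratio.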

Additional observations from a re-analysis of the deposited data

Results flagged for a closer look

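The virus went with Dusp1 differences of opposite direction in the 2 cultures, and each counting interval excludes equality. The log2 knockdown ratio was 0.53 under OGD and -1.18 in normal culture, a difference of 1.71. Dusp8 moved in opposite directions under OGD, with a log2 ratio of 0.53 in knockdown cells and -0.72 in control cells, a difference of 1.26. Neither difference was tested, since each group holds 1 library. Both involve the control library in normal culture, in which the neuron marker list summed to 2025 CPM, against 33.5 to 215 CPM in the other 3 libraries, and the part of those transcripts in either difference was not tested.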

How the results depend on the processing

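Of the counts of genes past 2-fold and of differences past 1, 59 values under alternatives stayed within 1.5 times and 7 did not. Of those, 6 concern knockdown against control under OGD. There 1 gene was higher with TMM, against 3 with total counts, 2 with the deposited FPKM ratio and 0 with a floor of 100 reads, which Dusp2 does not reach. In the same comparison 1 gene was lower, Dusp7, against 0 with total counts, 0 with 2 CPM added and 0 with the FPKM ratio. The number of genes with a difference of the OGD ratios below -1, counted without a floor, was 1, Dusp2, and 0 with 2 CPM added, which shrinks ratios of low genes. Of 295 values of single genes 22 moved beyond their counting interval, 11 with total counts and 11 with FPKM, and 0 of those past 2-fold changed sign. The 295 include the values at other floors, which could not move because the floor does not enter the ratio of a single gene. They also include the Dusp2 ratios against the control library in normal culture, which held 0 reads. Intervals of these Dusp2 ratios have no upper end, so the count of 22 cannot show whether they moved. With 0.1 and 2 CPM added, the log2 knockdown ratio was 5.78 and 1.89, against 3.56 with 0.5 CPM. The log2 OGD ratio in control cells was 3.34 with 0.1 CPM and 0.54 with 2 CPM. Under OGD the TMM factor was 0.893 for control cells and 1.03 for knockdown cells, and total counts apply neither. These factors enter every knockdown ratio under OGD. What lies behind them, and behind the change with the FPKM ratio, was not tested. Leaving out a library was impossible with 1 per group. No paired analysis was possible because each group holds 1 library. Depth limits Dusp2, whose 4 libraries held 215 reads in all.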
